A study of Homo sapiens with 13 samples.

Results

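ESM1, VWF and 8 genes of the vascular endothelial growth factor (VEGF) and angiopoietin families were followed in hFOB 1.19 osteoblasts. The cells were fed with serum, starved of it, or starved and given a test compound. The 10 genes are ESM1, VWF, VEGFA, VEGFB, VEGFC, PGF, FLT1, KDR, ANGPT1 and ANGPTL4. They are 10 of the 43836 genes in the count table. ESM1 and VWF were chosen for their extreme levels with serum, so those levels are described below without a test. The other 8 were chosen as factors and receptors that act with them in blood vessel growth, with earlier results of these data known.

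hFOB 1.19 is a single immortalized line derived from fetal bone, and messenger RNA was sequenced from 12 libraries in 5 groups. Positive controls (PC, 2 libraries) grew with 10% fetal bovine serum (FBS) and the solvent dimethyl sulfoxide (DMSO). Negative controls (NC, 2 libraries) were starved of serum and received DMSO. The compounds were given to serum-starved cells at 1 µg/mL: resveratrol (RES, 3 libraries), a stilbene; peonidin-3-O-glucoside (POG, 3 libraries), an anthocyanin; and DEG (2 of 3 labelled libraries), a code that the labels do not spell out. Of each library, 38464619 to 51416358 reads were counted on genes. The labels do not say that libraries of a group came from separate cultures, so p-values measure only the spread between these libraries. For each pair of libraries of 1 group, the squared difference per gene relative to counting noise averaged 2.05 to 2.63 outside PC and 10.5 between the 2 PC libraries.

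In bone, vessels and osteoblasts grow together, and osteoblasts secrete VEGF that calls in endothelial cells. VEGFA binds the receptors FLT1 (VEGFR1) and KDR (VEGFR2), of which KDR carries most of the growth signal and FLT1 binds tightly but signals weakly. VEGFB and PGF bind FLT1 alone among the VEGF receptors, whereas VEGFC acts chiefly on FLT4 and drives lymphatic growth. ANGPT1 activates the endothelial receptor TEK, and ANGPTL4 is a secreted inhibitor of lipoprotein lipase that is induced by hypoxia, fasting and PPAR ligands. ESM1 (endocan) is a proteoglycan of activated endothelium and VWF (von Willebrand factor) is the clotting protein that captures platelets. Both are better known from endothelial cells than from bone-forming cells.

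Stretches of RefSeq promoters (build GRCh38.p14, 40 to 11 bases before the annotated start, 5′ to 3′ on the gene's strand) are shown for 5 members. ESM1, FLT1 and ANGPTL4 carry a TATA box letter match there, and VEGFC and VEGFB do not. KDR and PGF, which are not shown, had no such match either. Capitals mark TATAAA and ACGTG, the letters of a TATA box and of the core of a hypoxia response element. The coordinates are chr5:54985604-54985633 (minus strand) for ESM1, chr13:28495139-28495168 (minus) for FLT1, chr19:8364115-8364144 (plus) for ANGPTL4, chr4:176792933-176792962 (minus) for VEGFC and chr11:64234544-64234573 (plus) for VEGFB.
ESM1: acccagtgTATAAAactcataaACGTGtag
FLT1: gggaaaggtTATAAAtcgcccccgccctcg
ANGPTL4: cgcacccaactTATAAAaaccgtcctcggg
VEGFC: gctttctctcacataagcgcaggcagaggg
VEGFB: cgcctgcccgccagcccgggcccagccccc
Of the 10 genes, 7 had a promoter entry, PGF with 2 entries. In the 250 bases before the start, searched on both strands, TATAAA was found in 3 of the 7 (ESM1, FLT1, ANGPTL4) and in 10.7% of all 35116 promoter windows. ACGTG was found in 2 of the 7, ESM1 and ANGPTL4, and in 18.5% of all windows. TGANTCA (the AP-1 site) and GGAATG (the TEAD site) were found in 0 of the 7, and in 6.57% and 11.9% of all windows. ESM1's match to ACGTG lies 18 to 14 bases before the start and that of ANGPTL4 234 to 230 bases before it, on the reverse strand. The ESM1 window held 47.6% G and C and that of VEGFB 82.8%, against a median of 58.0% over all windows. These are matches of letters only. The RefSeq starts of ESM1 and ANGPTL4 lie inside the gene spans given below. Their matches thus lie before the RefSeq start but not before every annotated one. The windows of ESM1 and FLT1 overlap an annotated exon of the same gene, but the TATAAA of FLT1 lies before the outer end of its span.

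Levels are given as CPM, read counts divided by library totals that were scaled by TMM and brought to a common size. Differences are log2 fold changes with their standard error (SE). A gene counts as called where edgeR's exact test, adjusted over 17092 genes, gave a false discovery rate (FDR) below 0.05. The spread of each gene was estimated over all 12 libraries together. SEs and FDRs of comparisons with PC thus do not carry the wider spread between the PC libraries in full. With the spread estimated from PC and NC alone, 5914 genes were called between them, against 7245. Below, n is 2 for PC, NC and DEG and 3 for RES and POG. All 10 genes passed the filter on low counts. In bulk RNA, fewer cells that express a gene and less RNA per cell cannot be told apart.

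ESM1 was the gene with the widest range among the 10, with a 66.4-fold span between the highest and the lowest group mean. The gene lies at chr5:54977867-55022671 on the minus strand. In PC it had 1767 and 1562 reads, or 35.8 and 37.0 CPM. In NC it had 17 and 39 reads, or 0.439 and 0.981 CPM. RES libraries had 58, 52 and 49 reads (1.30, 1.16 and 1.10 CPM), POG libraries 39, 23 and 12 reads (0.866, 0.522 and 0.258 CPM) and DEG libraries 26 and 22 reads (0.672 and 0.560 CPM). Thus PC stood far above the 4 starved groups, and among the starved groups every RES library was above every other library. The log2 difference of PC from NC was 5.67, the 2nd largest rise of the 17092 genes, and this is the value by which the gene was chosen. Between the 2 NC libraries the level differed by more than the difference of their mean from the RES mean of 1.19.

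VWF went the other way with serum. The gene lies at chr12:5948877-6124770 on the minus strand. PC libraries had 19 and 9 reads (0.384 and 0.213 CPM) and NC libraries 91 and 108 reads (2.35 and 2.72 CPM). The highest levels were those of RES, with 247, 179 and 227 reads (5.54, 4.0 and 5.09 CPM). POG libraries had 127, 111 and 143 reads (2.82, 2.52 and 3.08 CPM) and DEG libraries 77 and 106 reads (1.99 and 2.70 CPM). All 3 RES libraries were above the other 9, both PC libraries were below the other 10, and NC, POG and DEG overlapped. The log2 difference of PC from NC was -3.04, the 16th largest fall of all genes tested, again the value that chose it. A VWF pseudogene, VWFP1, had 6 and 3 reads in RES replicates 2 and 3, 1 read in PC replicate 1 and NC replicate 1, and 0 elsewhere.

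**Figure D1:**
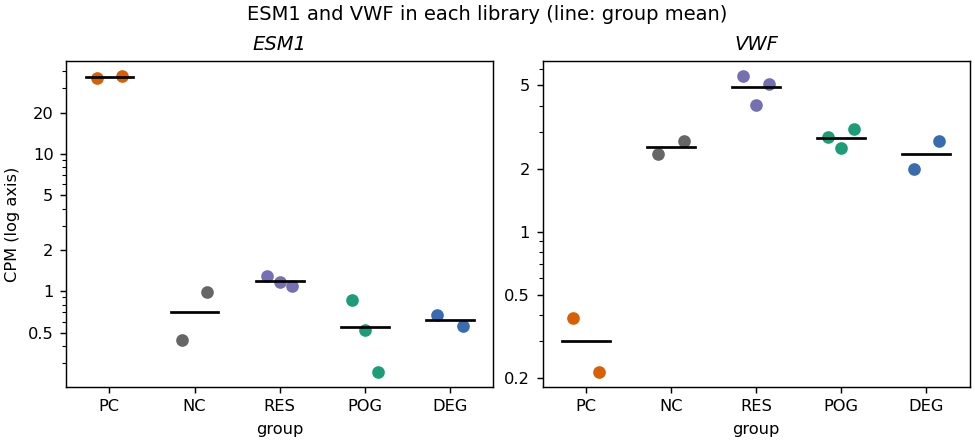
Level of ESM1 (left) and VWF (right) in each of the 12 libraries, in CPM on a log axis, by group (PC with serum; NC, RES, POG and DEG without), with a line at each group mean. ESM1 is near 36 CPM in both PC libraries and at most 1.30 CPM elsewhere, while VWF is lowest in PC and highest in the 3 RES libraries.

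Among the starved cells, RES raised VWF over NC by 0.94 on the log2 scale (SE 0.17, FDR 3.29e-06), and that call was kept under every alternative analysis run. ESM1 was 0.73 higher in RES than in NC (SE 0.24, FDR 0.0203), but the call rested on the NC libraries: without NC replicate 1 the difference was 0.28 and the FDR 0.745. It was also lost with edgeR's quasi-likelihood test (FDR 0.109), DESeq2 (0.323), dispersions from the 2 groups alone (0.0761) and without RES replicate 1 (0.0921). POG and DEG gave ESM1 differences from NC of -0.38 (95% interval -0.91 to 0.14) and -0.21 (-0.79 to 0.37). The VWF differences from NC were 0.15 (-0.20 to 0.50) for POG and -0.11 (-0.51 to 0.29) for DEG. The NC values helped choose both genes. The comparisons between compounds use libraries that the choice by serum level did not, although earlier results were known.

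Compared directly, ESM1 was lower in POG than in RES, at a log2 fold change of -1.12 (SE 0.22, FDR 2.03e-06), and this call was kept under every alternative. In DEG it was -0.95 relative to RES (SE 0.25, FDR 0.00124), a call lost with DESeq2 (FDR 0.132) and without DEG replicate 2 (0.0733). VWF was lower than in RES both in POG (-0.80, SE 0.15, FDR 1.01e-06) and in DEG (-1.06, SE 0.18, FDR 6.27e-08). Neither gene was called between DEG and POG, where the intervals were -0.37 to 0.72 for ESM1 and -0.62 to 0.10 for VWF.

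Of the VEGF ligands, VEGFA and VEGFC rose with serum and fell with POG and DEG, PGF rose with serum and with RES, and VEGFB was not called between starved groups in the exact test. VEGFA (chr6:43770184-43786487, plus strand) had 480 and 472 CPM in PC and 209 and 206 CPM in NC. It had 178, 181 and 179 CPM in RES, 155, 158 and 154 CPM in POG, and 161 and 158 CPM in DEG. With 6199 to 23710 reads a library, the libraries of a group lay close together, and the groups did not overlap except POG with DEG. PC exceeded NC by 1.20 (SE 0.036, FDR 6.08e-237). All 3 compounds lowered VEGFA below NC, RES by a log2 fold change of -0.21 (SE 0.034, FDR 5.01e-08), POG of -0.42 (SE 0.034, FDR 7.43e-32) and DEG of -0.38 (SE 0.038, FDR 4.18e-21). The order of the groups was PC, NC, RES, DEG and POG, in which only the neighbours DEG and POG were not called (difference 0.04, 95% interval -0.03 to 0.11).

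VEGFC (chr4:176683538-176792922, minus strand) had 207 and 199 CPM in PC, 158 and 165 CPM in NC and 168, 166 and 162 CPM in RES. POG libraries were lower, at 134, 138 and 138 CPM, and so were DEG libraries, at 140 and 143 CPM. Serum raised VEGFC by 0.33 (SE 0.040, FDR 2.01e-15). POG lowered it by a log2 fold change of -0.24 (SE 0.037, FDR 5.7e-09) and DEG of -0.19 (SE 0.041, FDR 0.000165). The DEG call was lost without NC replicate 2 (FDR 0.0506). The difference of RES from NC was 0.04 (95% interval -0.04 to 0.11). Against RES, VEGFC was lower in POG (-0.28, SE 0.033, FDR 3.11e-15) and in DEG (-0.23, SE 0.037, FDR 6.68e-08).

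PGF, placenta growth factor (chr14:74941834-74955626, minus strand), had 32.7 and 31.4 CPM in PC, 24.6 and 22.0 CPM in NC, and 28.5, 28.5 and 28.2 CPM in RES. POG libraries had 22.6, 24.6 and 23.5 CPM and DEG libraries 25.6 and 24.3 CPM. RES lay above the other starved groups, with no overlap, and below PC. The rise over NC was 0.46 with serum (SE 0.065, FDR 2.34e-11) and 0.28 with RES (SE 0.061, FDR 0.000115). Without NC replicate 2 the RES call was lost (FDR 0.0855). PGF was lower than in RES in POG (-0.27, SE 0.053, FDR 6.07e-06) and in DEG (-0.18, SE 0.060, FDR 0.0147, lost without DEG replicate 2 at FDR 0.236).

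VEGFB (chr11:64234584-64239264, plus strand) was the flattest of the 10, with group means from 79.1 CPM in POG to 85.5 CPM in PC, a 1.08-fold span. Its libraries ran from 77.1 to 81.4 CPM in RES, 77.9 to 81.0 CPM in POG, 82.7 to 83.7 CPM in DEG, 81.5 to 86.8 CPM in NC and 80.2 to 90.8 CPM in PC, so that PC overlapped every other group. With 3157 to 4485 reads a library its difference between PC and NC was 0.02 (95% interval -0.08 to 0.12), and between RES and NC -0.08 (-0.17 to 0.01). In the exact test it passed the threshold in PC against POG (0.11, SE 0.047, FDR 0.0369), although the libraries of those groups overlapped and 7 alternatives lost the call. VEGFB was also called in POG against NC with dispersions from the 2 groups alone (-0.088, FDR 0.0436). Without PC replicate 2 it was called in PC against NC (FDR 0.0237), against RES (1.02e-05) and against DEG (0.00903).

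The VEGF receptors differed in level and direction. FLT1 (chr13:28300346-28495145, minus strand) was lowest with serum: PC libraries had 23.5 and 25.8 CPM and NC libraries 42.0 and 42.2 CPM. RES libraries had 49.4, 47.8 and 46.9 CPM, POG libraries 39.96, 37.8 and 36.1 CPM and DEG libraries 39.99 and 41.0 CPM. RES stood above every other group and PC below every other group. The log2 fold change was -0.78 for PC against NC (SE 0.060, FDR 2.79e-36), opposite in sign to those of VEGFA, VEGFC and PGF. For RES against NC it was 0.19 (SE 0.052, FDR 0.00483), a call lost without NC replicate 1 (FDR 0.0969) or NC replicate 2 (0.0643). For POG against NC it was -0.15 (SE 0.053, FDR 0.0351), and 8 alternatives lost this call, among them the quasi-likelihood test (FDR 0.0512) and leaving out NC replicate 2 (0.225). The direct differences from RES held in every alternative, with -0.34 in POG (SE 0.046, FDR 6.19e-12) and -0.25 in DEG (SE 0.052, FDR 4.2e-05).

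KDR (chr4:55078481-55125595, minus strand) was scarce, at 12 to 70 reads a library. PC libraries had 70 and 59 reads (1.42 and 1.40 CPM) and NC libraries 25 and 25 reads (0.646 and 0.629 CPM). RES libraries had 31, 45 and 49 reads, POG libraries 36, 13 and 12 reads and DEG libraries 30 and 32 reads. PC was above every starved library, while POG replicate 1 stood apart from the other POG libraries and above NC and 1 RES library. KDR was higher in PC than in NC by 1.14 (SE 0.36, FDR 0.00463), a call lost without NC replicate 1 (FDR 0.051) or NC replicate 2 (0.0532). It was lower in POG than in RES (-1.05, SE 0.31, FDR 0.00536), although the libraries overlapped. That call was lost without RES replicate 3 (FDR 0.0527), POG replicate 2 (0.0756) or POG replicate 3 (0.0835). The difference of POG from NC was -0.50 (SE 0.37, FDR 0.473), and it passed the threshold once POG replicate 1 was left out (FDR 0.0351). Exons of VEGFA, VEGFC and KDR meet the gene spans of long noncoding RNAs on the opposite strand. Whether exons of both meet was not checked. The strand setting of the counting was not given in the sources used here, so reads of such partners could not be told apart. An exon of ESM1 meets the span of a long noncoding RNA on the same strand, which had 1 read over all libraries.

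ANGPTL4 (chr19:8363289-8374370, plus strand) showed the largest fall from NC among the 10 genes in RES and in POG. PC libraries had 115 and 102 CPM and NC libraries 63.8 and 65.6 CPM. RES libraries had 38.1, 38.1 and 35.3 CPM, POG libraries 33.3, 30.7 and 31.6 CPM and DEG libraries 46.7 and 45.5 CPM. No 2 groups overlapped, and all neighbours in the order PC, NC, DEG, RES and POG were called. Serum raised ANGPTL4 by 0.75 (SE 0.056, FDR 5.72e-39). Against NC the log2 fold change was -0.80 in RES (SE 0.054, FDR 2.75e-47), -1.02 in POG (SE 0.054, FDR 1.13e-76) and -0.49 in DEG (SE 0.059, FDR 1.92e-14). ANGPTL4 was lower in POG than in RES (-0.22, SE 0.051, FDR 0.000129) and higher in DEG than in RES (0.31, SE 0.055, FDR 6.3e-07). It was the single member called between DEG and POG, at 0.53 (SE 0.056, FDR 1.12e-17).

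ANGPT1, on chromosome 8, had 21 to 72 reads a library. PC libraries had 1.46 and 1.59 CPM, NC libraries 1.11 and 1.01 CPM and RES libraries 1.12, 1.18 and 1.17 CPM. POG libraries had 0.777, 0.998 and 0.796 CPM and DEG libraries 0.620 and 0.534 CPM. DEG was below every other group without overlap. The difference of DEG from NC was -0.87 (SE 0.31, FDR 0.0505), which passed the threshold with a filter of at least 1 CPM on the mean (FDR 0.0273). Against RES, ANGPT1 was lower in DEG (-1.0, SE 0.28, FDR 0.00362), a call lost without DEG replicate 2 (FDR 0.0763). The difference of PC from NC was 0.52 (95% interval 0.02 to 1.02, FDR 0.0935).

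**Figure D2:**
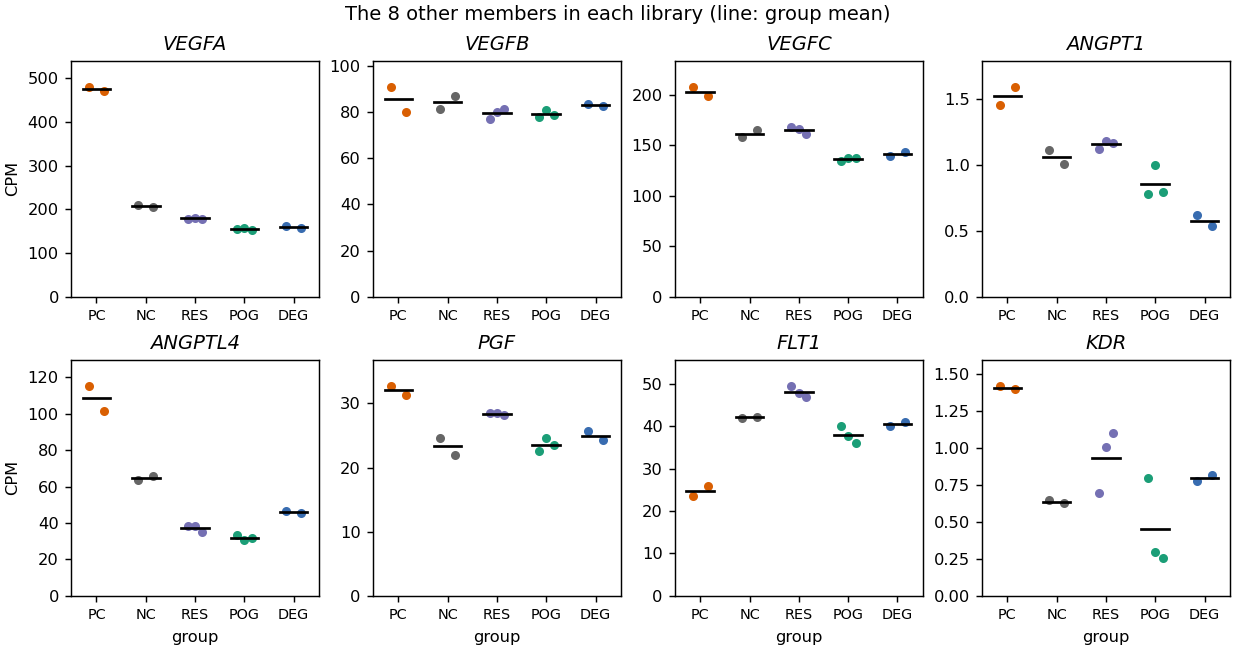
Level in CPM, on axes that start at 0, of the 8 members other than ESM1 and VWF in each of the 12 libraries by group, with a line at each group mean. VEGFA, VEGFC and ANGPTL4 are highest in PC and lowest in POG, FLT1 is lowest in PC and highest in RES, and VEGFB is level.

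Counted together, 6 of the 8 members not chosen by serum values were called between PC and NC (5 higher, 1 lower), where 42.4% of all genes tested were called, 21.4% higher and 20.9% lower. VEGFA, VEGFC, ANGPTL4, PGF and KDR were higher and FLT1 lower. Their median log2 fold change was 0.49. For the same 8, RES against NC gave 4 called (PGF and FLT1 higher, VEGFA and ANGPTL4 lower), against 11.2% of all genes (4.94% higher and 6.21% lower). POG against NC gave 4 of 8, all lower (VEGFA, VEGFC, ANGPTL4 and FLT1), against 14.5% of all genes in either direction, 5.93% higher and 8.57% lower. DEG against NC gave 3 of 8, all lower (VEGFA, VEGFC and ANGPTL4), against 9.63% in either direction, 3.52% higher and 6.11% lower. ESM1 and VWF, which the NC values helped choose, are left out of these counts. The 8 were also chosen with earlier results of these data known, so the shares of all genes give a scale and not a test. The comparisons share the 2 NC libraries. The medians over all genes tested lay between -0.015 and 0.0023 in every comparison.

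**Figure D3:**
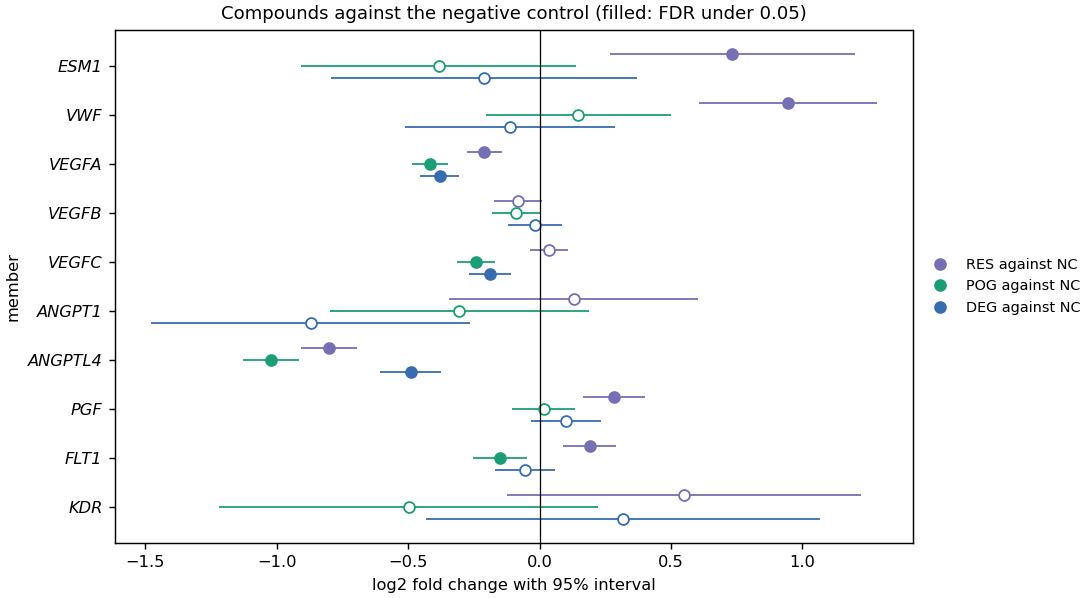
Log2 fold change of each member in RES, POG and DEG against NC (x axis), with bars for the 95% interval and filled points where the FDR is under 0.05. RES lies to the right of POG and DEG for ESM1, VWF, VEGFA, VEGFC, PGF and FLT1, and all 3 compounds lie below 0 for VEGFA and ANGPTL4.

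Between the compounds at the same 1 µg/mL, 3 pairs were compared, each adjusted over all genes. POG against RES gave 8 called members of 10, all lower in POG, where 27.9% of all genes were called and 14.1% were lower. ANGPT1 and VEGFB were the members not called, with intervals of -0.86 to -0.01 and -0.09 to 0.08. DEG against RES gave 8 of 10, of which 7 were lower and ANGPTL4 was higher, against 21.2% of all genes in either direction, 10.3% higher and 10.8% lower. VEGFB and KDR were the members not called, with intervals of -0.03 to 0.16 and -0.88 to 0.42. DEG against POG gave 1 of 10, higher in DEG, against 1.05% of all genes in either direction and 0.550% higher. In that pair the intervals of the abundant uncalled members VEGFA, VEGFB, VEGFC, PGF and FLT1 lay between -0.04 and 0.20, while that of KDR reached from 0.12 to 1.51 and that of ANGPT1 from -1.14 to 0.00. POG is an anthocyanin glucoside and RES a stilbene without sugar; the structure of DEG was not compared, since its code is not spelled out.

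**Figure D4:**
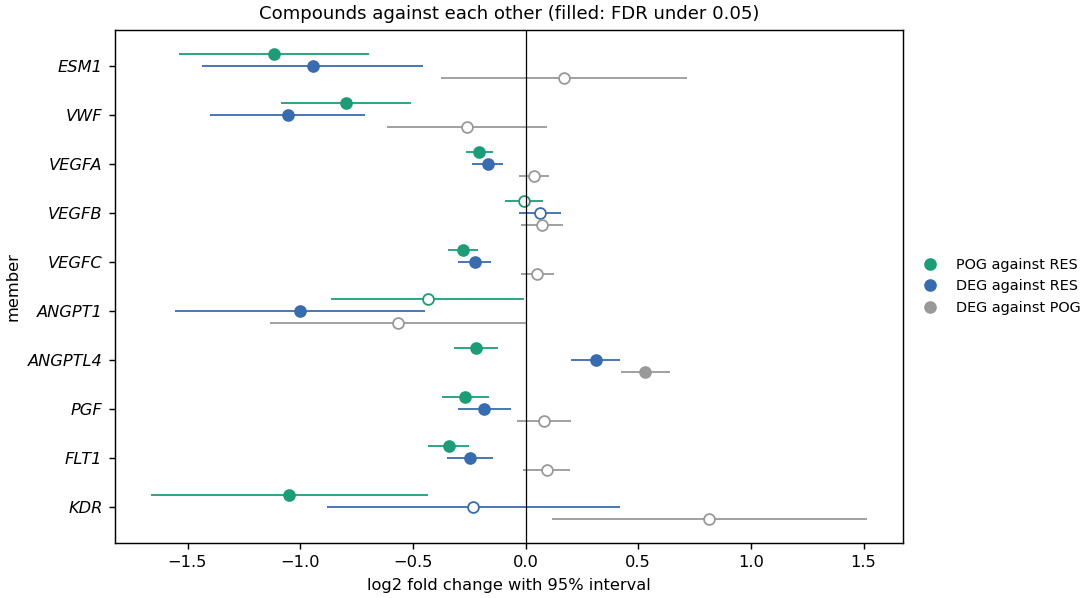
Log2 fold change of each member between compounds (x axis; POG against RES, DEG against RES, DEG against POG), with bars for the 95% interval and filled points where the FDR is under 0.05. Most members lie below 0 against RES, whereas DEG against POG is near 0 except for ANGPTL4 at 0.53 and the wide intervals of the scarce genes.

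PC was also set against each compound for the 8 members not chosen by serum values. Against RES, 5 of 8 were called (VEGFA, VEGFC, ANGPTL4 and PGF higher, FLT1 lower), where 45.7% of all genes were called. Against POG, 8 of 8 were called, 7 higher and FLT1 lower, at 47.9% of all genes (24.2% higher and 23.8% lower). The VEGFB call among these was lost in several alternatives, and its libraries overlapped, as given above. Against DEG, 7 of 8 were called, all but VEGFB, at 43.4% of all genes. ANGPTL4 had a log2 fold change of 1.55 in PC against RES, 1.77 against POG and 1.24 against DEG. For FLT1 the same values were -0.97, -0.63 and -0.72. The PGF difference of 0.18 from RES (FDR 0.0064) was lost with plain library totals (FDR 0.123) and without PC replicate 1 (0.0828), and the KDR difference of 0.82 from DEG (FDR 0.0447) was lost in several alternatives. For ESM1 the log2 difference of PC was 4.93 from RES, 6.05 from POG and 5.88 from DEG, and for VWF -3.99, -3.19 and -2.93, given without a test.

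Per length of the longest transcript, as CPM divided by kilobases (RPKM), the order of the members in NC ran from VEGFC (71.4 RPKM), VEGFB (46.6) and ANGPTL4 (34.6) over VEGFA (17.1), PGF (6.57) and FLT1 (5.91) to ESM1 (0.339), VWF (0.287), ANGPT1 (0.243) and KDR (0.109). ESM1 reached 17.4 RPKM in PC, near the VEGFA level of NC on that scale. The place of VEGFA depends on the transcript, since its longest has 12167 bases and its canonical one 3609, which gives 57.5 RPKM. On this scale FLT1 was above KDR in every group. KDR was the lowest member in NC, RES and POG, whereas VWF was the lowest in PC (0.0339 RPKM, KDR 0.241) and ANGPT1 and KDR were close in DEG (0.133 and 0.136).

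Receptors and partners of the member ligands were counted in a list of 17, of which 15 were tested. PC against NC called 7 higher and 3 lower, RES against NC 3 higher and 2 lower, POG against NC 1 higher and 8 lower, and DEG against NC 1 higher and 6 lower. Against RES, POG had 0 higher and 10 lower (median -0.34), with 5 not called, and DEG 0 higher and 7 lower (median -0.35), with 8 not called, while DEG against POG had 2 higher and 0 lower. Over all genes, 42.4% were called in PC against NC, 11.2% in RES, 14.5% in POG and 9.63% in DEG against NC. The shares were 27.9% in POG against RES (14.1% lower), 21.2% in DEG against RES (10.8% lower) and 1.05% in DEG against POG, and these apply to each list counted below. TIE1, an endothelial receptor related to TEK, rose in all 4 groups over NC, by 1.5 in PC (SE 0.11, FDR 2.29e-45), 0.91 in RES (FDR 8.19e-17), 0.57 in POG (FDR 1.27e-06) and 0.50 in DEG (FDR 0.000491). ANGPT2, an antagonist of ANGPT1, was scarce (mean 0.278 CPM) and called higher in PC than in NC (1.38, SE 0.57, FDR 0.0396). Its reads were 24 and 16 in PC and 3 and 10 in NC. The 10 calls of the list in PC against NC came to 9 with the quasi-likelihood test and 9 with DESeq2. SEMA3F, a semaphorin that binds NRP2, and PLXND1, a semaphorin receptor, were the most abundant partners at 291 CPM each, and in PC against NC both fell, with log2 fold changes of -0.20 (FDR 1.6e-06) and -0.30 (FDR 3.84e-14).

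The receptor TEK and the VEGF co-receptors NRP1 and NRP2, chosen after their values were seen, show the range. TEK, the receptor of ANGPT1, had 40.3 ± 1.25 CPM in NC (SD), 55.1 ± 2.32 in PC, 53.4 ± 3.53 in RES, 34.6 ± 1.46 in POG and 36.1 ± 0.501 in DEG. It rose with RES by 0.41 (SE 0.05, FDR 2.51e-11) and fell with POG, at -0.22 (SE 0.06, FDR 0.0015). NRP1 had 160 ± 4.17 CPM in NC, 199 ± 5.06 in PC, 136 ± 1.78 in RES, 116 ± 1.07 in POG and 119 ± 0.0756 in DEG. Its order, PC, NC, RES, DEG and POG, was that of VEGFA, and it fell below NC in RES (-0.23, FDR 9.29e-09), POG (-0.46, FDR 6.48e-35) and DEG (-0.43, FDR 5.89e-24). NRP2 changed less, at -0.14 in RES (FDR 0.00716), -0.12 in POG (FDR 0.0248) and -0.16 in DEG (FDR 0.00505).

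**Figure D5:**
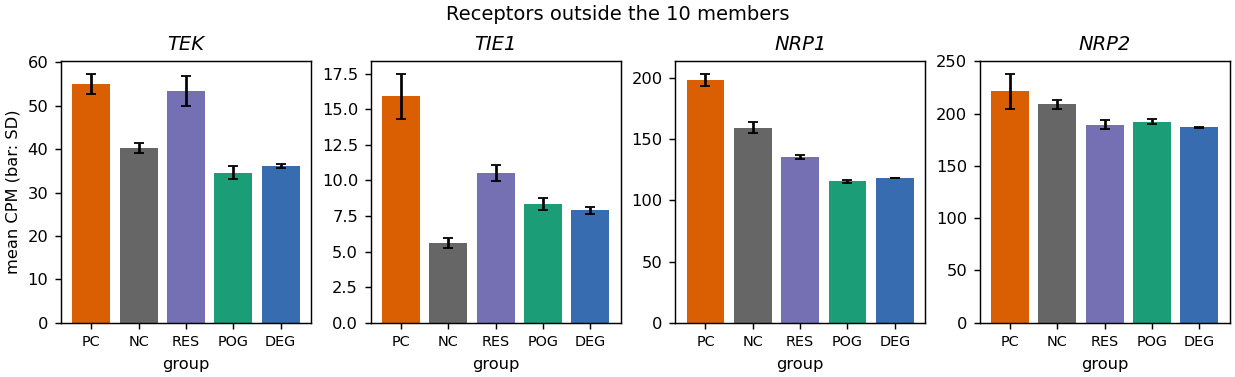
Mean level in CPM of 4 receptors outside the 10 members (TEK, TIE1, NRP1, NRP2) by group, on axes that start at 0, with bars for the SD over the 2 or 3 libraries of a group. TIE1 is lowest in NC, TEK is highest in PC and RES, and NRP1 falls from PC to POG.

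Other angiogenic factors were counted in a list of 15 genes, all tested. PC against NC called 9 higher and 4 lower, RES against NC 3 higher and 0 lower, POG against NC 0 higher and 6 lower, and DEG against NC 1 higher and 3 lower. POG against RES called 0 higher and 11 lower (median -0.33), DEG against RES 2 higher and 5 lower, and DEG against POG 4 higher and 0 lower. Over all genes, 42.4% were called with serum and 11.2% with RES, and the 3 calls of the list in RES against NC came to 1 with the quasi-likelihood test and 1 with DESeq2. CXCL8, a chemokine that attracts neutrophils and endothelial cells, rose with serum by 0.99 (SE 0.04, FDR 9.69e-157) and fell with POG, at -0.35 (SE 0.03, FDR 5.78e-23). CCN1, a matricellular protein, rose with serum by 0.97 (FDR 1.53e-159), fell with POG (-0.35, FDR 4.96e-25) and was higher in DEG than in POG (0.38, FDR 6e-28). EDN1, the vasoconstrictor endothelin, rose with serum by 2.42 (SE 0.28, FDR 2.39e-17). ADM, the vasodilator adrenomedullin, rose with serum by 0.94 (SE 0.06, FDR 3.43e-59) and fell with POG (-0.48, FDR 8.66e-15) and DEG (-0.30, FDR 0.000102).

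Of 13 angiogenesis inhibitors 10 were tested, with 5 higher and 2 lower in PC against NC, where 21.4% of all genes were called higher and 20.9% lower, and 0 and 2 in RES, 1 and 3 in POG and 0 and 2 in DEG against NC. Between compounds the counts were 3 higher and 2 lower for POG against RES, 2 and 2 for DEG against RES, and 2 and 0 for DEG against POG. THBS1, thrombospondin, rose with serum by 0.43 (SE 0.04, FDR 3.9e-21) and fell in RES (-0.38, FDR 8.19e-18), POG (-0.94, FDR 1.02e-110) and DEG (-0.71, FDR 3.78e-50). TIMP3, a metalloproteinase inhibitor that also blocks KDR, rose with serum by 0.88 (FDR 1.54e-88) and fell in POG (-0.79, FDR 5.31e-74) and DEG (-0.60, FDR 1.45e-33). SPARC, a collagen-binding protein of bone matrix, and COL18A1, the source of endostatin, were the most abundant of the list, and their log2 fold changes with POG were 0.02 and 0.01.

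Proteins that bind, cut or release VWF were counted in a list of 12, of which 7 were tested and 3 had no read. In RES against NC edgeR's exact test called 0 of the 7, as it did in DEG against NC and in DEG against POG, where 11.2%, 9.63% and 1.05% of all genes were called. In each of these 3 comparisons 1 gene had an unadjusted p under 0.05, and the quasi-likelihood test and DESeq2 called 0 as well. PC against NC called 1 higher and 2 lower, POG against NC 0 and 2, POG against RES 0 and 3, and DEG against RES 0 and 1. ITGB3, a chain of the fibrinogen and vitronectin receptors, rose with serum by 0.58 (FDR 2.18e-09), and ITGA2B, the platelet chain that pairs with it, had a difference of -0.37 (FDR 0.0384), which neither the quasi-likelihood test nor DESeq2 called. FURIN, the protease that cuts the VWF precursor, and STXBP5, a regulator of its release, had log2 fold changes of -0.06 and 0.13 in RES against NC.

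Genes induced by hypoxia, as VEGFA and ANGPTL4 are, were counted in a list of 13, of which 12 were tested. PC against NC called 6 higher and 0 lower, where 42.4% of all genes were called and 21.4% were higher, RES against NC 0 and 3, POG against NC 1 and 5, and DEG against NC 3 and 5. POG against RES called 4 higher and 3 lower, DEG against RES 5 and 2, and DEG against POG 1 and 0. CA9, a carbonic anhydrase, rose with serum by 1.69 (SE 0.18, FDR 2.58e-19) and with DEG by 0.88 (SE 0.20, FDR 0.000219), and was the gene of the list called between DEG and POG (0.71, FDR 0.00698), a call that DESeq2 did not make. ENO1 and LDHA, glycolytic enzymes, rose with serum by 0.45 (FDR 8.79e-35) and 0.65 (FDR 7.15e-67), and both fell with POG, at -0.15 (FDR 0.00013) and -0.19 (FDR 4.45e-07).

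Genes induced by PPAR ligands, as ANGPTL4 is, were counted in a list of 10, of which 8 were tested. PC against NC called 1 higher and 4 lower, RES against NC 0 and 4, POG against NC 0 and 3, and DEG against NC 0 and 1, beside 42.4%, 11.2%, 14.5% and 9.63% of all genes. POG against RES called 2 higher and 0 lower, DEG against RES 5 and 0, and DEG against POG 2 and 0. PLIN2, which coats lipid droplets, rose with serum by 0.35 (FDR 1.12e-13), fell in RES (-0.23, FDR 2.96e-06) and POG (-0.17, FDR 0.000787) and had a log2 fold change of 0.00 in DEG (FDR 1). ACADVL, of fatty acid oxidation, fell in RES (-0.25, FDR 2.23e-10), and CPT1A, which carries fatty acids into mitochondria, fell in all 4 groups, with log2 fold changes from -0.45 in PC to -0.20 in DEG. PDK4, a kinase that spares glucose, fell in POG (-1.40, SE 0.36, FDR 0.00144) and was higher in DEG than in POG (1.51, SE 0.35, FDR 0.00503), as ANGPTL4 was. The 2 calls of the list in DEG against POG came to 1 with DESeq2.

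Markers of cell types were counted beside these results. Of 12 osteoblast markers 9 were tested, with summed levels of 5264 to 5322 CPM in NC, 5463 to 5525 in PC, 4908 to 5036 in RES, 4753 to 4788 in POG and 4764 to 4771 in DEG. COL1A1, COL1A2 and SPARC made up most of the sum and RUNX2 had a mean of 47.8 CPM. Of the other markers, ALPL had 131 to 326 reads a library, SPP1 43 to 104, BGLAP 19 to 90, SP7 0 to 8, IBSP 0 or 1, and OMD none. Osteoblast markers were called 2 higher and 0 lower in PC against NC, where 21.4% of all genes were higher. Against NC the counts were 0 and 1 in RES, 0 and 3 in POG and 0 and 3 in DEG. They were 1 and 4 in POG against RES and 1 and 3 in DEG against RES. ALPL rose with serum by 0.70 (FDR 1.5e-06) and SPP1 fell with POG, at -0.81 (FDR 0.0047). BGLAP had a mean of 1.49 CPM in NC and 0.91 in PC. Of 16 endothelial markers 12 were tested, MMRN1 and CLEC14A had no read, and CDH5 and EMCN had at most 5 and 2 reads a library. PECAM1 had 50 to 110 reads a library, ROBO4 219 to 399, ERG 12 to 73, CLDN5 2 to 12 and SOX17 0 to 15. CLDN5 was lower in POG than in RES (-1.95, SE 0.71, FDR 0.0197) and SOX17 was higher in PC than in POG (1.81, SE 0.67, FDR 0.0167). The summed level was 102 to 103 CPM in NC, 124 to 126 in PC, 120 to 128 in RES, 96.1 to 101 in POG and 98.0 to 99.2 in DEG, most of it from EGFL7 and TEK. This sum is high in RES, as VWF is, and in PC, where VWF is lowest. Endothelial markers were called 4 higher and 2 lower in PC against NC, 2 and 0 in RES, 1 and 3 in POG, 1 and 2 in DEG, 0 and 6 in POG against RES and 0 and 4 in DEG against RES, beside the shares of all genes given above. TEK and TIE1, the 2 called in RES, were already counted among the partners. In DEG against POG 0 were called by the exact test, the quasi-likelihood test and DESeq2, with 1 at an unadjusted p under 0.05 in the exact test. Of 5 platelet markers 1 was tested (ITGA2B) and 2 had no read, and they summed to 2.82 to 4.53 CPM. Of 6 leukocyte markers 3 were tested, CD14 had 12 to 68 and CD68 8 to 24 reads a library, CD3E had no read, and they summed to 1.04 to 2.35 CPM. The part of these cell markers in the results on the 10 genes was not tested.

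The genes whose levels went most like those of 4 members were picked by Pearson's r of log2 CPM over the 12 libraries among 13406 genes with at least 1 CPM. The libraries fall apart into PC and the rest, so r is given over the 10 starved libraries as well, as a description. For ESM1 these genes were SCUBE3 (r = 0.99, 0.89 without PC), VSIR (0.99, 0.87) and ETS1 (0.99, 0.82), of which ETS1 encodes a transcription factor of endothelial genes. For VWF they were SPINT1 (0.98, 0.90), HLA-H (0.98, 0.84), a pseudogene whose reads may belong to related genes, and PTN (0.98, 0.83), the growth factor pleiotrophin. VEGFA went most like LDHA (0.995, 0.95), HIF1A (0.994, 0.92), which encodes the hypoxia-inducible factor subunit, and HPCAL1 (0.99, 0.92). ANGPTL4 went most like ZYX (0.98, 0.95), ATP1B3 (0.97, 0.95) and ACTG1 (0.97, 0.93), of which ZYX and ACTG1 encode zyxin and a cytoplasmic actin. By Spearman's rank correlation, SCUBE3 stayed among the first 3 for ESM1 and ATP1B3 for ANGPTL4, and none of the others did.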

How the data were processed

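Libraries were made from polyA RNA with the Universal Plus mRNA-Seq kit and sequenced on an Illumina NovaSeq. The authors deposited raw read counts per gene, made with FastQC, STAR (BWA MEM was also named), build hg38 and featureCounts on Ensembl genes. Versions, annotation release, strand setting and handling of multi-mapped reads were not given in the sources used here. The table held 12 libraries of 13 labelled samples; DEG replicate 3 was not analysed here. Of 43836 genes, 43177 matched a symbol.

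Genes were filtered with filterByExpr by group (17092 kept, 99.967% of reads) and tested with edgeR 4.0.16 in R 4.3.3: TMM scaling, dispersions over all 12 libraries, exactTest and Benjamini-Hochberg adjustment (two-sided, called at an FDR under 0.05). SEs came from the fitted negative binomial variance, and 95% intervals are 1.96 SE either way. They cover these libraries only; reads carried no molecular identifiers and may repeat a molecule. Lengths and coordinates came from GENCODE v44 (hg38).

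The members and lists were chosen with earlier results of these data known. Named genes were the members, the 3 genes most correlated with 4 of them, and per list of pathway genes 2 of the highest mean CPM and 2 of the largest called change; exceptions are marked. Cell type markers named beside the sums were chosen after their values were seen. Replicate numbers follow the order of the samples and only name libraries. Lists covered partners, other angiogenic factors, inhibitors, VWF partners, hypoxia targets, PPAR targets and markers of osteoblasts, endothelium, platelets and leukocytes. TEK, TIE1, ADM, SPARC, ITGA2B and MMRN1 each stand in 2 lists, so counts of different lists are not independent. Alternatives were the quasi-likelihood test, DESeq2 1.42.0, its size factors, plain totals, no filter, a minimum mean of 1 CPM, dispersions estimated on the compared pair alone, and each library left out.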

Additional observations from a re-analysis of the deposited data

How the results depend on the processing

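Over the alternatives run, 92 values of a member in a comparison were tested. They leave out ESM1 and VWF against PC but hold both against NC, although NC values helped choose them. Of the 92, 56 were called. Of these, 43 stayed called in every alternative, 13 were lost in at least 1 alternative and 0 changed sign. Of the values not called, 9 changed sign and 8 were called in at least 1 alternative. With 1 library left out, the number of members called ran from 5 to 8 for DEG against RES and from 1 to 2 for DEG against POG; the cause was not tested beyond the smaller number of libraries. In the other comparisons, the count stayed within 1.5 times that of the exact test on all 12 libraries, with ESM1 and VWF included except against PC. Without ESM1 and VWF, this bound did not hold for RES against NC. There, leaving out NC replicate 2 lost PGF and FLT1 (log2 fold changes 0.21 and 0.20) of the 4 members called. The calls over all genes behind the percentages moved by over 1.5 times in 5 comparisons. For DEG against POG they numbered 179, but 103 with the quasi-likelihood test, 116 with no filter, 829 with dispersions from the compared groups alone and 32 to 100 with 1 library left out. For DEG against NC they numbered 1646, but 2566 with those dispersions and 850 to 931 with 1 library left out. Leaving out 1 library lowered them from 3616 to 2068 or 2208 for DEG against RES (a DEG library), from 2478 to 1362 or 1364 for POG against NC (an NC library) and from 1906 to 881 or 937 for RES against NC (an NC library). With plain library totals the median of all genes moved by at most -0.070. Scaling by plain totals turned VEGFB to -0.020 in PC against NC, 0.0016 in DEG against NC and -0.022 in PC against DEG, none of them called. With 1 library left out, the sign also turned for these values, none of them called where it turned: VEGFB ran from -0.065 to 0.12 in PC against NC, -0.062 to 0.032 in DEG against NC, -0.030 to 0.0096 in POG against RES and -0.050 to 0.13 in PC against DEG; PGF ran from -0.061 to 0.099 in POG against NC; ESM1 ran from -0.88 to 0.31 in POG against NC, -0.67 to 0.49 in DEG against NC and -0.18 to 0.67 in DEG against POG; and VWF ran from -0.35 to 0.090 in DEG against NC. The cause was not tested. No paired analysis was possible because the labels number no replicates: the numbers used here follow the order of the samples and only name libraries. Depth limits ESM1, VWF, ANGPT1 and KDR, whose libraries held as few as 12, 9, 21 and 12 reads.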
